A study of Mus musculus castaneus and Mus musculus domesticus and Mus musculus with 11 samples.

Results

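The receptors through which motor neurons take up neurotrophic signals were examined as a group of 9 genes: Ntrk2, Ntrk3, Ret, Gfra1, Gfra2, Cntfr, Lifr, Il6st and Met. They were chosen by name, and each was found by its mouse Ensembl identifier among the 27071 genes of the read matrix. All 9 passed the filter on low counts, which left 14839 genes for testing. Poly(A) RNA of motor neurons differentiated from stem cells was sequenced in 3 lines with 3 libraries each, to compare the transcriptional identity of the lines in a study of neurite growth. The first line carried the 129S6/SvEv background of Mus musculus domesticus and is called 129. The second was CAST/EiJ, of Mus musculus castaneus, and is called CAST. The third, labelled 129CAS and named a CASTx129 hybrid in the design, is called the hybrid. Every sample was labelled as motor neuron, with no treatment, age or sorting step recorded in the sources used here. The labels name neither separate cultures nor separate clones for the libraries of 1 line, and p-values therefore cover only the spread among these 9 libraries, which may be technical.

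Motor neurons depend for survival and axon growth on factors released by muscle, glia and other neurons, and each family of factors has its own receptors. BDNF and NT-3 bind the tyrosine kinases TrkB and TrkC, encoded by Ntrk2 and Ntrk3. GDNF and neurturin bind GPI-anchored co-receptors, encoded by Gfra1 and Gfra2, which engage the kinase RET. CNTF and related cytokines bind the complex of CNTFR, LIFR and the shared subunit gp130, encoded by Il6st, which signals through JAK kinases and STAT3. HGF, a factor from limb muscle and mesenchyme for some motor pools, binds the kinase MET.

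Total counts ran from 7763077 in hybrid 2 to 18167577 in 129 1, and a receptor had between 22 and 12632 counts in a library. Of 10 motor neuron markers, 9 were detected in all 9 libraries, and Lhx3 was at 0 in hybrid 1. Their summed level was 650 to 1686 counts per 1000000 scaled counts (CPM) in 129, 682 to 1401 in the hybrid and 868 to 3254 in CAST. Most of that sum was Prph and Slit2, while Mnx1, a defining motor neuron factor, stood between 0.495 and 4.88 CPM, and Chat, which makes acetylcholine, between 5.52 and 28.4 CPM. Markers of fibroblasts and mesenchyme, all 10 detected in every library, summed to 3813 to 18268 CPM in 129, 1028 to 19257 in the hybrid and 846 to 4345 in CAST. The 10 markers of astrocytes and radial glia were also all detected, with sums of 467 to 1113, 1063 to 1786 and 979 to 1587 CPM. Several smaller marker sums differed between lines without overlap. Those of microglia and blood, with 1 of 6 measured markers detected in every library and Spi1 at 0 in 4, were 4.06 to 7.76 CPM in 129, 30.7 to 53.0 in the hybrid and 6.88 to 18.9 in CAST. Oligodendrocyte lineage markers, with 5 of 10 detected in every library and Mog at 0 in 5, summed to 93.8 to 188, 113 to 139 and 46.2 to 58.2 CPM, lowest in CAST. Muscle markers (5 of 8 detected in every library, Myod1 at 0 in 4) summed to 44.5 to 232 CPM in 129 and 15.3 to 23.2 in CAST, and endothelial markers (3 of 7, Cldn5 at 0 in 5) to 25.6 to 47.3 in 129 and 13.6 to 20.0 in the hybrid. Spinal interneuron markers (4 of 7 measured, Lhx5 at 0 in 2) summed to 14.6 to 22.9 CPM in the hybrid and 24.9 to 31.1 in CAST. Sensory, autonomic and neural crest markers (6 of 7 measured, Foxd3 at 0 in 4) summed to 5.95 to 33.3 CPM in 129, 31.1 to 69.7 in the hybrid, highest in hybrid 2, and 37.0 to 288 in CAST, highest in CAST 1. The part of other cell types in the receptors' levels was not tested. In bulk libraries such as these, fewer cells of a type and less RNA per cell cannot be told apart. Libraries also differed in how level depended on transcript length. The slope of a library's relative log2 level on log2 exon length was 0.25 to 0.31 in 129, but −0.60 in hybrid 2, −0.49 in CAST 1 and −0.25 in hybrid 3, so that long transcripts gave relatively few counts there. It was 0.07 in hybrid 1, 0.17 in CAST 2 and 0.27 in CAST 3.

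All 9 receptors were expressed in all 3 lines, and none of the 9 passed an adjusted p of 0.05 in any comparison between lines. Over all tested genes, 0.917% passed in CAST against 129, 7.02% in hybrid against 129, 6% in hybrid against CAST, and 8.03% in the joint test of any difference among the 3 lines. At an unadjusted p under 0.05, edgeR gave 1 of 9 receptors in CAST against 129 (14.6% of all genes), 3 in hybrid against 129 (22.2%), 0 in hybrid against CAST (15.8%) and 1 in the joint test (21.1%). DESeq2 called 0, 2, 0 and 0 of the receptors, against 6.33%, 14.2%, 10.8% and 16.9% of all genes, and limma-voom called none, against 1.58%, 7.48%, 6.56% and 8.39%. The 2 receptors called by DESeq2 were Ntrk3 and Met, both lower in the hybrid than in 129.

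The receptors' levels per kilobase of exon differed widely within a line. In 129, Gfra1 led with 56.2 ± 29.8 CPM per kilobase (SD, n = 3), followed by Ret at 48.1 ± 27.2, Lifr at 40.3 ± 25.4 and Il6st at 23.5 ± 3.38. These 4 overlapped from neighbour to neighbour. Il6st did not overlap the next in order, Cntfr, which had 12.9 ± 2.92 CPM per kilobase. Below Cntfr came Gfra2 at 9.91 ± 6.44, Ntrk2 at 7.49 ± 2.76, Met at 7.17 ± 1.54 and Ntrk3 at 5.81 ± 2.84 CPM per kilobase, each overlapping the next.

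The order was partly different in the other lines. In the hybrid, Gfra1 (31.9 ± 15.4 CPM per kilobase), Cntfr (25.8 ± 9.24) and Ret (24.0 ± 4.87) came first, then Il6st (11.7 ± 11.1), Lifr (11.5 ± 7.55), Gfra2 (5.36 ± 1.55) and Ntrk2 (4.97 ± 2.47), and last Ntrk3 (1.57 ± 0.517) and Met (1.33 ± 0.891). Ntrk3 did not overlap its neighbour Ntrk2, while Met, with 0.400 to 2.17 CPM per kilobase, reached just above the lowest library of Ntrk2, 2.13. In CAST, Gfra1 (35.2 ± 13.2), Il6st (32.5 ± 23.2), Lifr (31.7 ± 23.8), Ret (31.5 ± 6.51) and Cntfr (30.7 ± 15.7) had close means, and Ntrk2 (7.46 ± 5.20), Gfra2 (6.65 ± 3.92), Met (3.18 ± 3.07) and Ntrk3 (3.14 ± 2.05) had lower means. Of these neighbours only Cntfr and Ntrk2 did not overlap, and the lowest libraries of Il6st and Lifr fell within the range of Ntrk2. Ntrk2 and Ntrk3 have long models with truncated isoforms, and their level depends on the length used. With the longest coding transcript, an alternative chosen after seeing the data, the mean of Ntrk2 in 129 was 16.5 CPM per kilobase, above Gfra2 at 10.1. Cntfr had the highest mean in CAST, 42.8, beside 41.5 for Il6st. In both cases the libraries of the 2 genes overlapped.

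**Figure D1:**
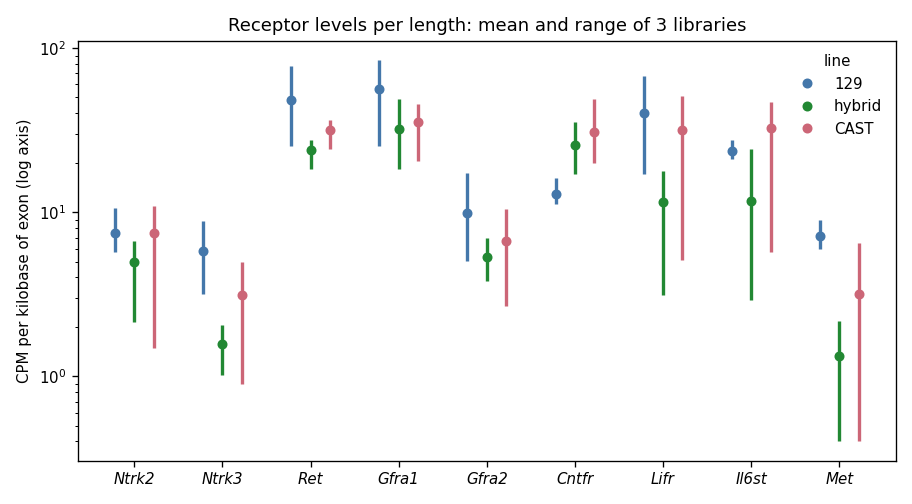
Level of each receptor per kilobase of union exon length, in CPM per kilobase on a log axis, for 129, hybrid and CAST. Points are means and bars run from the lowest to the highest of 3 libraries. Gfra1 had the highest mean in each line, while Met and Ntrk3 were among the 3 lowest in each.

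Among the neurotrophin receptors, Ntrk2 (ENSMUSG00000055254, GRCm38 chromosome 13, 58806569 to 59133970, plus strand, 19.29 kilobases of exon) encodes TrkB, the receptor of BDNF. It had 109.6, 118 and 206 CPM in 129 1, 2 and 3, then 128, 41.1 and 118 in hybrid 1, 2 and 3, and 28.6, 194 and 209 in CAST 1, 2 and 3. Hybrid 2 and CAST 1 were low, and the 3 lines overlapped. Means of 129, hybrid and CAST were 144 ± 53.3, 95.8 ± 47.7 and 144 ± 100.2 CPM (SD, n = 3), in the same order below. The log2 fold change was −0.00 ± 0.70 (SE) in CAST against 129 (adjusted p = 1), and in hybrid against 129 it was −0.59 ± 0.70 (adjusted p = 0.604). In both comparisons it took the other sign with an offset for exon length, at 0.56 and 0.48.

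Ntrk3 (ENSMUSG00000059146, chromosome 7, 78175959 to 78738012, minus strand, 30.17 kilobases of exon) encodes TrkC, the receptor of NT-3, and had the longest exon model of the group. Its levels were 95.9, 164 and 266 CPM in 129 1 to 3, 49.2, 30.9 and 61.9 in the hybrid libraries, and 27.2, 108 and 149 in those of CAST. All 3 hybrid libraries lay below all 3 of 129, and CAST overlapped both. Means were 175 ± 85.8, 47.3 ± 15.6 and 94.8 ± 62.0 CPM. The hybrid mean was 3.70-fold under that of 129, with a log2 fold change of −1.89 ± 0.64 (SE) and an adjusted p of 0.127 in edgeR, unadjusted p = 0.015. DESeq2 gave an adjusted p of 0.0275, and edgeR without CAST 1 gave 0.0343. CAST 1 is in neither compared line, but the filter, scaling, shared spread and adjustment were all redone without it. With the exon length offset the log2 fold change was −0.29 (adjusted p = 0.711). In CAST against 129 the value was −0.89 ± 0.62 (adjusted p = 0.499), and 0.12 with the offset.

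Within each library, Ntrk2 exceeded Ntrk3 per kilobase. The ratio of Ntrk2 to Ntrk3 was 1.13 to 1.79 in 129, 2.08 to 4.07 in the hybrid and 1.65 to 2.80 in CAST. The hybrid range lay above that of 129 without overlap, and CAST overlapped both. Ntrk2 has 19.29 kilobases of exon and Ntrk3 30.17, and a level per kilobase does not remove a library's slope on exon length. The part of that slope in the ratio was not tested. Counts join full-length kinase receptors and truncated forms in each gene, so neither the levels nor this ratio is one of kinase receptors alone.

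Of the GDNF family receptors, Ret (ENSMUSG00000030110, chromosome 6, 118151745 to 118197718, minus strand, 6.763 kilobases of exon) encodes the signalling kinase. Its values were 170.0, 277 and 529 CPM in 129 1 to 3, 185, 125 and 177 in the hybrid libraries, and 227, 248 and 164 in those of CAST. The lines overlapped, and the highest library was 129 3. Means were 325 ± 184, 162 ± 32.9 and 213 ± 44.1 CPM, with log2 fold changes of −1.0 ± 0.46 in hybrid against 129 (adjusted p = 0.237) and −0.61 ± 0.46 in CAST against 129 (adjusted p = 0.524).

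Gfra1 (ENSMUSG00000025089, chromosome 19, 58235604 to 58455909, minus strand, 5.476 kilobases of exon) encodes the GDNF-binding co-receptor. It had 139, 319 and 465 CPM in 129 1 to 3, 158, 100.3 and 266 in the hybrid libraries, and 112, 251 and 216 in those of CAST. Each line spanned more than the distance between line means, which were 308 ± 163, 175 ± 84.2 and 193 ± 72.3 CPM. An antisense gene, Gm16277, covers 7.6% of its exonic bases, and the sources used here do not say whether counting used strand. The log2 fold change was −0.82 ± 0.56 in hybrid against 129 (adjusted p = 0.388) and −0.68 ± 0.56 in CAST against 129 (adjusted p = 0.555).

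Gfra2 (ENSMUSG00000022103, chromosome 14, 70890120 to 70979838, plus strand, 3.539 kilobases of exon), the neurturin co-receptor, was at a lower level. Its libraries had 17.8, 26.5 and 60.9 CPM in 129, 18.8, 13.6 and 24.5 in the hybrid libraries, and 9.50, 37.2 and 23.9 in those of CAST. All 3 lines overlapped, and the log2 fold changes were −0.88 ± 0.59 in hybrid against 129 (adjusted p = 0.374) and −0.57 ± 0.58 in CAST against 129 (adjusted p = 0.617).

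Ratios between the partners of the GDNF complex overlapped between the 3 lines. Per kilobase, the ratio of Gfra1 to Gfra2 was 4.94 to 7.79 in 129, 4.78 to 7.01 in the hybrid and 4.35 to 7.6 in CAST. Ret over the sum of both co-receptors was 0.624 to 0.824, 0.472 to 0.832 and 0.524 to 1.46. The highest value was that of CAST 1, the only library in which Ret exceeded its co-receptors.

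Of the CNTF receptor complex, Cntfr (ENSMUSG00000028444, chromosome 4, 41657498 to 41697089, minus strand, 2.782 kilobases of exon) encodes the subunit that binds the ligand and has no signalling domain of its own. It had 31.0, 31.3 and 45.2 CPM in 129 1 to 3, 47.2, 98.5 and 69.9 in the hybrid libraries, and 136, 55.4 and 65.4 in those of CAST. All hybrid and all CAST libraries lay above all of 129, the only receptor for which this was so. CAST 1 and hybrid 2, low for most receptors, were here the highest of their lines.

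Mean levels of Cntfr were 35.8 ± 8.12, 71.9 ± 25.7 and 85.5 ± 43.7 CPM. The log2 fold change was 1.25 ± 0.45 in CAST against 129 (adjusted p = 0.245, unadjusted p = 0.0194) and 1.0 ± 0.44 in hybrid against 129 (adjusted p = 0.223, unadjusted p = 0.0486). No alternative called either, with adjusted p from 0.114 to 0.642 and from 0.0849 to 0.538. Without CAST 1 and hybrid 2 the values were 0.73 and 0.72, and with the exon length offset they were 0.997 and 0.547.

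Lifr (ENSMUSG00000054263, chromosome 15, 7090614 to 7197489, plus strand, 10.78 kilobases of exon) encodes a signalling subunit shared by LIF and CNTF. Its levels were 183, 394 and 726 CPM in 129 1 to 3, 193, 33.8 and 144 in the hybrid libraries, and 55.3, 549 and 422 in those of CAST. CAST spanned 9.92-fold within the line, more than the 3.52-fold between the highest and the lowest line mean. Means were 434 ± 274, 123 ± 81.4 and 342 ± 256 CPM, and the largest fold change was that of hybrid against 129, −1.81 ± 0.90 on the log2 scale (adjusted p = 0.266).

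Il6st (ENSMUSG00000021756, chromosome 13, 112464070 to 112510086, plus strand, 11.1 kilobases of exon) encodes gp130, the shared signalling subunit. It had 304, 246 and 234 CPM in 129 1 to 3, 269, 32.6 and 88.9 in the hybrid libraries, and 63.6, 499 and 519 in those of CAST. The 129 libraries were close together, while the other lines each held low and high libraries. Means were 261 ± 37.5, 130 ± 124 and 360 ± 257 CPM, with a log2 fold change of −1.47 ± 0.86 in hybrid against CAST (adjusted p = 0.504).

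Within the CNTF receptor complex, the ratio of Cntfr to Lifr varied far more than the ratios of the GDNF receptors. Per kilobase, Cntfr over Lifr ran from 0.241 to 0.656 in 129, from 0.949 to 11.3 in the hybrid and from 0.391 to 9.49 in CAST, with the hybrid above 129 in all libraries. The highest values of the hybrid and of CAST came from hybrid 2 and CAST 1, the libraries with the lowest length slopes. Cntfr has 2.782 kilobases of exon and Lifr 10.78, and a level per kilobase does not remove a library's length slope. The part of that slope in this ratio was not tested. Lifr over Il6st was 0.620 to 3.2, 0.737 to 1.67 and 0.838 to 1.13, and the lines overlapped.

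Met (ENSMUSG00000009376, chromosome 6, 17463800 to 17573980, plus strand, 7.679 kilobases of exon), the HGF receptor, had the widest ratio between line means, 5.37-fold. Its levels were 68.4, 45.9 and 50.7 CPM in 129 1 to 3, 16.7, 3.07 and 11.0 in the hybrid libraries, and 3.10, 20.5 and 49.7 in those of CAST. Every hybrid library was under every 129 library, and CAST spanned nearly the whole range between them. Means were 55.0 ± 11.9, 10.2 ± 6.84 and 24.4 ± 23.6 CPM.

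The hybrid mean of Met was 5.33-fold under that of 129 in the fit, with a log2 fold change of −2.41 ± 0.88 (SE), an adjusted p of 0.156 in edgeR and an unadjusted p of 0.0218. It passed the threshold in 3 of 16 alternatives: DESeq2 (adjusted p = 0.0318), edgeR without CAST 1 (0.0407), and edgeR without both CAST 1 and hybrid 2 (0.0412, log2 fold change −1.98). With the exon length offset the log2 fold change was −2.13 (adjusted p = 0.0858), unlike that of Ntrk3, which was near 0. CAST against 129 gave −1.17 ± 0.84 (adjusted p = 0.51), and hybrid against CAST −1.25 ± 0.85 (adjusted p = 0.598).

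**Figure D2:**
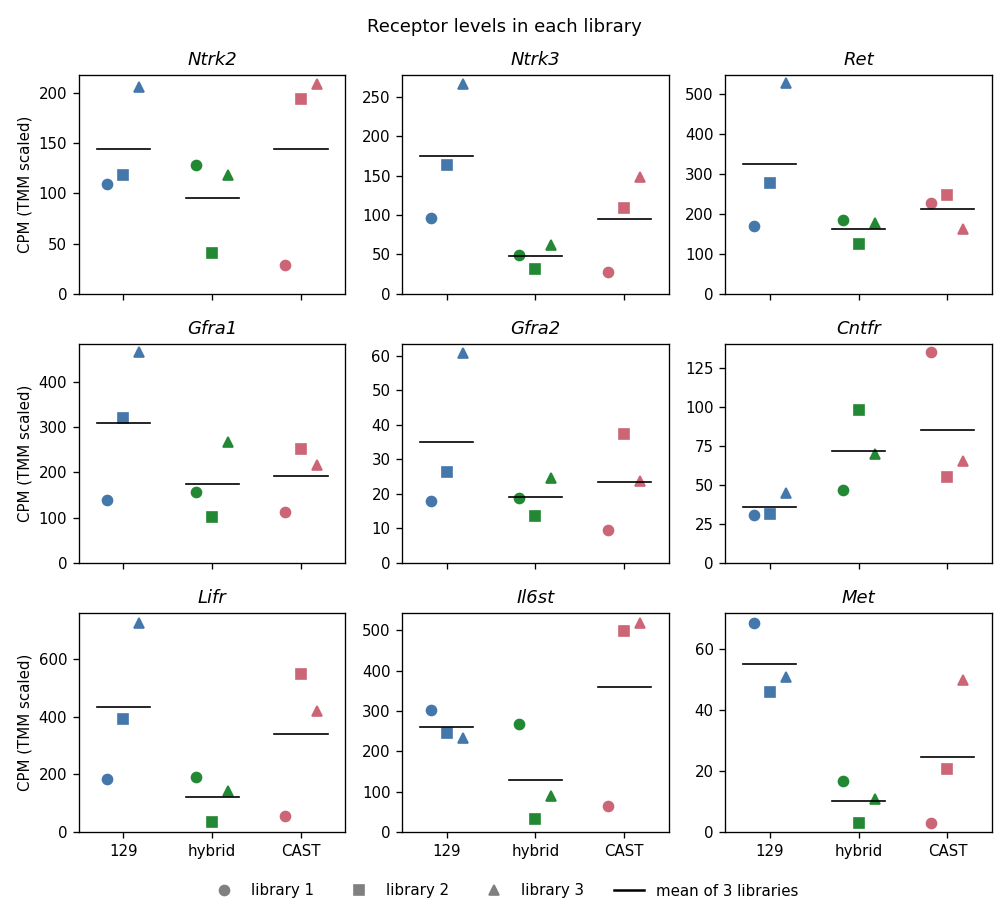
Level of each of the 9 receptors in CPM after TMM scaling, for 129, hybrid and CAST, with a linear axis from 0 in each panel. Symbols mark libraries 1, 2 and 3 of a line and lines mark the mean of 3. Hybrid libraries of Ntrk3 and Met lie below all 129 libraries, those of Cntfr lie above, and CAST 1 is the lowest CAST library for 7 of 9 receptors.

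Set side by side, most receptors had fold changes below 0. The log2 fold change was below 0 for 7 of 9 receptors in CAST against 129 (46.6% of all tested genes), 8 in hybrid against 129 (49.2%) and 9 in hybrid against CAST (54.5%). Its median over the receptors was −0.57, −1.0 and −0.59, beside 0.06, 0.02 and −0.08 over all tested genes. Of the motor neuron markers, 7, 9 and 7 of 10 were also below 0, with medians of −0.77, −0.77 and −0.49. EdgeR called 0 of them, with 1, 1 and 0 at an unadjusted p under 0.05, and DESeq2 called 0, 1 and 0. Over all tested genes the unadjusted shares were 14.6%, 22.2% and 15.8%, and DESeq2 called 6.33%, 14.2% and 10.8%. Pan-neuronal markers had 7, 6 and 7 of 10 below 0 and medians of −0.15, −0.59 and −0.45, with 0 called by edgeR or DESeq2 and 0 at an unadjusted p under 0.05. The part of neuronal content in the receptors' fold changes was not tested. These comparisons share libraries, so they are not separate evidence. With the exon length offset the receptors' medians were −0.06, −0.69 and −0.46, beside 0.129, −0.046 and −0.174 over all tested genes. Without CAST 1 and hybrid 2 they were −0.22, −0.67 and −0.67, beside −0.017, −0.005 and 0.039. The part of the length slope in these values was not tested beyond that offset.

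Few receptors had libraries of the compared lines free of overlap. In CAST against 129, 1 of 9 was higher without overlap (Cntfr), against 15.2% of all tested genes, and 0 were lower, against 13.5%. In hybrid against 129, 1 was higher (Cntfr, 20.5% of all genes) and 2 were lower (Ntrk3 and Met, 16.9%). None of 9 was free of overlap in hybrid against CAST, against 19.2% of all genes. With 9 receptors, these counts were close to the background.

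**Figure D3:**
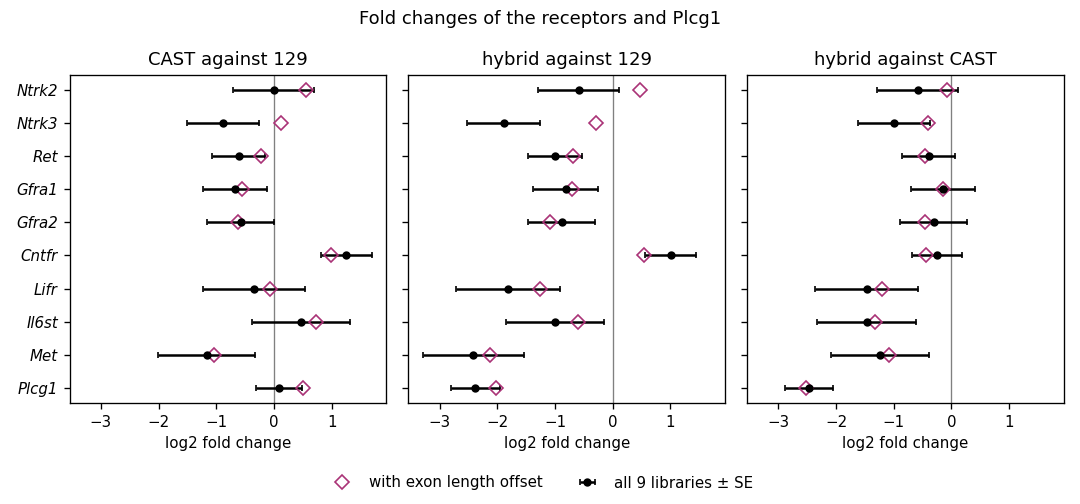
Log2 fold changes of the 9 receptors and of Plcg1 in the 3 comparisons, on a linear axis of log2 units. Filled points with bars are estimates ± SE from all 9 libraries, and open diamonds are estimates with an offset for exon length. The value of Ntrk3 in hybrid against 129 was −1.89 without and −0.29 with the offset, and that of Plcg1 was −2.38 without it.

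For each of the 9 receptors, the widest ratio between libraries of 1 line exceeded the ratio between the highest and the lowest line mean. For Met it was 16.1-fold within CAST against 5.37-fold between line means, but for Cntfr only 2.45-fold within CAST against 2.38-fold. Single libraries were here set beside means of 3 libraries, which favours this outcome. The share of all tested genes with this outcome was not computed. The same libraries were low for most receptors. CAST 1 was the lowest CAST library for 7 of 9 receptors, which held for 47.0% of all tested genes, and hybrid 2 the lowest hybrid library for 8 of 9 (40.5%). Prph and Slit2, which made up most of the motor neuron marker sum, differed in these libraries. Prph, a neurofilament of peripheral axons, had its highest level of each line there, with 2996 CPM in CAST 1 and 1229.6 in hybrid 2. Slit2, a guidance ligand, had its lowest there, with 23.7 and 31.0 CPM, against 193 and 301 in CAST 2 and CAST 3. Prph has 1.999 kilobases of exon and Slit2 25.43, and these libraries had the lowest length slopes. The part of that slope in this difference was not tested.

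Within 129, the lowest library was 129 1 and the highest 129 3 for 7 of 9 receptors, an order found for 32.7% of all tested genes. Summed motor neuron markers had the same order, with 650, 1141 and 1686 CPM in 129 1, 2 and 3, and so did summed pan-neuronal markers, with 3924, 5996 and 10131 CPM. Summed fibroblast and mesenchyme markers had the reverse order, with 18268, 13242 and 3813 CPM. The exceptions were Il6st and Met, both highest in 129 1.

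Of the 9 receptors, 7 have exon models longer than the median of the tested genes, 4.368 kilobases, and Gfra2 and Cntfr are shorter. Met and Il6st had their lowest level in each of the hybrid and CAST in the library with the lowest length slope, hybrid 2 and CAST 1. Ret differed less between these libraries and the rest, with 125 CPM in hybrid 2 and 227 in CAST 1. Gfra2, though shorter than the median, also had its lowest level of each of these lines in hybrid 2 and CAST 1. For Cntfr the highest level of each of these lines was in those libraries.

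**Figure D4:**
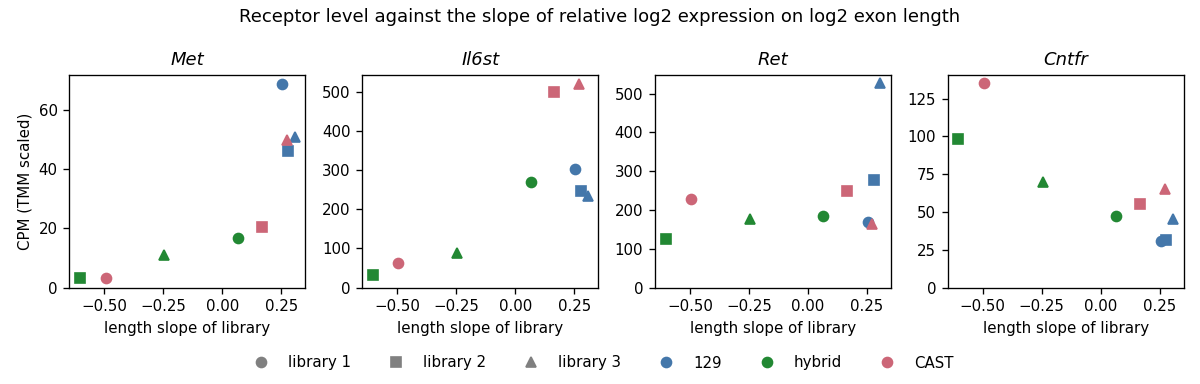
Level of Met, Il6st, Ret and Cntfr in CPM against the length slope of each library, with colour for the line and symbol for the library number. Hybrid 2 (−0.60) and CAST 1 (−0.49) lie at the left, where Met and Il6st are low and Cntfr is high.

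Genes of the surrounding pathways came from 13 lists with 126 genes other than the receptors, of which 120 were in the matrix and 114 were tested. In CAST against 129, 0 of 114 passed the threshold in edgeR (0.917% of all tested genes). An unadjusted p under 0.05 in edgeR held for 11 (14.6%), and DESeq2 called 4 (6.33%). In hybrid against 129 and hybrid against CAST, 1 of 114 passed, beside 7.02% and 6% of all tested genes. It was lower in the hybrid in both, and 1.6% of all tested genes were called lower in each. There 17 and 6 had an unadjusted p under 0.05 (22.2% and 15.8% of all genes), and DESeq2 called 7 and 3 (14.2% and 10.8%). Median log2 fold changes of the 114 genes were −0.11, −0.23 and −0.21.

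The single gene that passed was Plcg1 (ENSMUSG00000016933, chromosome 2, 160731300 to 160775760, plus strand, 7.857 kilobases of exon). It encodes phospholipase C gamma 1, which docks on activated receptor tyrosine kinases such as TrkB and cleaves PIP2 into diacylglycerol and IP3. Its levels were 106, 121 and 112 CPM in 129 1 to 3, 30.2, 11.0 and 23.7 in the hybrid libraries, and 94.4, 148 and 119.6 in those of CAST. The hybrid libraries lay far below both parental lines, which overlapped. Means were 113 ± 7.45, 21.6 ± 9.75 and 120.5 ± 26.6 CPM.

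Plcg1 fell in the hybrid 5.21-fold against 129, with a log2 fold change of −2.38 ± 0.42 (SE, adjusted p = 0.00804), and 5.55-fold against CAST, with −2.47 ± 0.42 (adjusted p = 0.00678). It was lower in all 3 hybrid libraries than in any other library. Both calls held in 16 of 16 alternatives, with adjusted p from 2.68e-07 to 0.0467 and from 1.39e-07 to 0.0434. CAST against 129 gave 0.09 ± 0.40 (adjusted p = 0.913). The widest ratio within a line, 2.74-fold, was smaller than that between line means, 5.57-fold. Plcg1 was named for its call and the receptors were chosen by name, so this is no contrast between them. Genes on the other strand, Gm27206 and Zhx3, share 6.68% of its exonic bases.

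**Figure D5:**
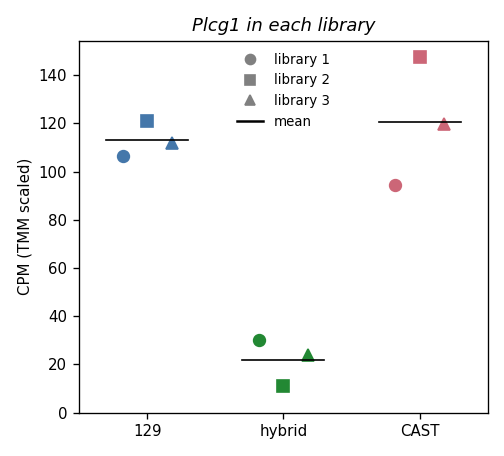
Level of Plcg1 in CPM after TMM scaling in each library of 129, hybrid and CAST, on a linear axis from 0, with the mean of 3 libraries as a line. The hybrid libraries sit between 11.0 and 30.2 CPM and all others between 94.4 and 148 CPM.

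No other adaptor or kinase was called in edgeR. The list of receptor adaptors and proximal signalling held 29 tested genes with a median log2 fold change of −0.57 in hybrid against 129 and −0.26 in each of the other comparisons. Plcg1 included, edgeR gave 2, 5 and 2 of the 29 at an unadjusted p under 0.05, and DESeq2 called 0, 2 and 1. The order was CAST against 129, hybrid against 129 and hybrid against CAST. Over all tested genes the shares were 14.6%, 22.2% and 15.8% at that unadjusted p, and 6.33%, 14.2% and 10.8% by DESeq2. EdgeR called 0.917%, 7.02% and 6% of all tested genes. The same shares apply to the other lists below. In the JAK-STAT arm, edgeR called 0 of 10 in each comparison, with 2, 3 and 0 at an unadjusted p under 0.05, and DESeq2 called 2, 0 and 0. Its 2 most abundant genes were Jak1, with mean levels of 683, 479 and 560 CPM in 129, hybrid and CAST, and Stat3, with 379, 241 and 313 CPM. All hybrid and all CAST libraries of Stat3 lay below all of 129, without a call. Such a lower level without overlap held for 16.9% of all tested genes in the hybrid and 13.5% in CAST. Among receptor inhibitors and feedback genes, edgeR called 0 of 14, with 1, 2 and 0 at an unadjusted p under 0.05, and DESeq2 called 0, 1 and 0. Ptprf, a receptor phosphatase, had 381, 218 and 315 CPM. Spred1, an inhibitor of the RAS and MAP kinase path, had 228, 71.0 and 109 CPM. As for Stat3, all hybrid and all CAST libraries of Spred1 lay below all of 129, without a call.

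Other receptors of the same families were present beside the 9. Ngfr, the p75 neurotrophin receptor, had 48.6, 82.6 and 163 CPM in 129 1 to 3, 58.2, 70.3 and 124 in the hybrid libraries, and 202, 155 and 103 in those of CAST, with overlapping lines. Kidins220, a scaffold of Trk receptors, had means of 455, 222 and 316 CPM in 129, hybrid and CAST, and Sort1, a sorting receptor that also binds proneurotrophins, had 217, 113 and 202 CPM. In both, all hybrid libraries were below all of 129, as for 16.9% of all tested genes, without a call. Of the GDNF family, Ncam1 (668, 242 and 536 CPM) and Sdc3 (598, 333 and 574 CPM), both described as alternative GDNF receptors, were abundant. Hybrid libraries of Ncam1 and Sdc3 also lay below all of 129, and those of Sdc3 below all of CAST, without a call. Gfra3 and Gfral did not pass the filter. Near the CNTF receptors, Sorl1 had 160, 70.0 and 197 CPM and Osmr, the oncostatin M receptor subunit, 77.6, 50.2 and 55.1 CPM. Plxnb1, a semaphorin receptor that can associate with MET, had 97.2, 90.7 and 123 CPM.

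Transcripts of the ligands were measured in the same cultures. Bdnf had the highest level, with 121, 126 and 99.97 CPM in 129 1 to 3, 137, 50.9 and 85.9 in the hybrid libraries, and 48.6, 53.7 and 83.6 in those of CAST. The CAST libraries lay below those of 129 without overlap, with a log2 fold change of −0.90 ± 0.42 (adjusted p = 0.358). An antisense gene, Gm45346, covers 14.4% of its exonic bases. Gdnf was low, at 2.47 to 8.23 CPM in 129, 0.769 to 4.67 in the hybrid and 0.516 to 8.89 in CAST, and Artn had 0.769 to 5.87 CPM over the 9 libraries.

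Of the cytokines of the CNTF family, Lif had 25.9, 19.9 and 12.9 CPM in 129 1 to 3, 9.34, 2.51 and 3.84 in the hybrid libraries, and 5.99, 10.3 and 15.6 in those of CAST. The hybrid libraries lay below those of 129, with a log2 fold change of −1.89 ± 0.57 (adjusted p = 0.092 in edgeR, 0.013 in DESeq2). Cntf itself had at most 1.27 CPM and was not tested, and its count is uncertain, since 78.9% of its exonic bases are shared with Zfp91 on the same strand. Hgf had 0.206 to 3.07 CPM, and the plasminogen activator Plau, which can activate pro-HGF, had means of 56.8, 52.7 and 33.8 CPM.

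Genes with the most similar pattern were sought among 11290 genes, by Pearson's r of log2 CPM over the 9 libraries. These values describe a likeness over libraries that share depth and length slope, and they carry no test. For Met they were Sema6a (r = 0.987), Hivep2 (0.984) and Sytl2 (0.983). For Ntrk2 they were Auts2 (0.986), Dixdc1 (0.983) and Zfhx4 (0.983), and for Ntrk3 Mdga2 (0.984), Slc35f1 (0.979) and Slc38a9 (0.977). Gfra1 was most like Grin3a (0.982), Plekhh1 (0.970) and Rbfox1 (0.963), and Gfra2 like Spock3 (0.982), Unc5d (0.972) and Scn8a (0.954). Lifr was most like Slc4a8 (0.992), Palm2 (0.991) and Tnik (0.987), and Il6st like Cep164 (0.993), Sh3bgrl2 (0.990) and Fam102b (0.990). The lowest likeness was that of Ret, with Stk32a (0.937), Lsm11 (0.926) and Itga7 (0.915). Cntfr was most like Spata7 (0.988), Ctxn1 (0.978) and Emc9 (0.975). No gene was named for more than 1 receptor, but with only 3 named for each this does not mean that the receptors had separate patterns. Between receptors, r ran from −0.871 (Cntfr and Met) to 0.924 (Ntrk3 and Lifr), and it was below 0 for Cntfr with every other receptor.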

How the data were processed

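The authors deposited a matrix of raw counts per Ensembl gene, with no normalization visible in the values. Reads were aligned with STAR to mm10, per the submitters' processing notes. Not given in the sources used here are the version of STAR, the counting tool, its annotation and any strand option. How sequence differences between the strains and mm10 act on the counts was not tested. Of 11 labelled samples, the 9 of this matrix were used. CAST 7 and CAST 8 belong to another matrix and were not analysed here. The number in a column name was taken as the label's replicate number.

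Symbols (found for 27031 genes, missing for 40), coordinates and exon lengths came from GENCODE M21 on GRCm38. Genes were kept by filterByExpr (minimum count 10, total 15, proportion 0.7). Counts were scaled by TMM and fitted in edgeR 4.0.16 (R 4.3.3) with robust quasi-likelihood tests, 3 lines in 1 fit and no covariate. P-values are two-sided and Benjamini-Hochberg adjusted over 14839 genes, with a threshold of 0.05. Log2 CPM used a prior count of 2. DESeq2 1.42.0, limma-voom (limma 3.58.1), other size factors, no filter, a replicate block, omitted libraries and a loess offset for exon length (span 0.5) were alternatives. The fit was tested on simulated data.

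Same-number libraries deviated together (correlation over 0.1) in 2 of 9 pairs, range −0.72 to 0.49, so the numbers were not used as pairs. The receptors, lists and tests were chosen with earlier results of these data known. Named genes were all receptors, up to 3 called genes per list, direction and comparison (otherwise the 2 of highest mean CPM), and 3 similar genes per receptor with a mean of at least 5 CPM. Ngfr, Cntf, Hgf, Gfra3 and Gfral lie outside that rule and were named after their values were seen, as family members. Some listed genes are not reported here.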

Additional observations from a re-analysis of the deposited data

How the results depend on the processing

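Depth limited Met most, with 22 counts in hybrid 2. Of 432 fold changes of receptors under alternatives, 15 changed sign and none of those was called. No receptor was called in CAST against 129, hybrid against CAST or the joint test under any of 16 alternatives. In hybrid against 129, DESeq2 called 2 (Ntrk3 and Met), the fit without CAST 1 called 2, leaving out CAST 1 and hybrid 2 called 1 (Met), and leaving out 1 library called 0 to 2. The replicate block called 0 receptors in each comparison. The cause of these changes was not tested.

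Genes called in all moved more. DESeq2 called 939 in CAST against 129, 2100 in hybrid against 129, 1597 in hybrid against CAST and 2506 in the joint test, where edgeR called 136, 1041, 891 and 1192. The fit with the replicate number as a block called 6, 561, 526 and 651, and in it Plcg1 passed both hybrid comparisons but not the joint test (adjusted p = 0.0639). In CAST against 129, limma-voom called 234, leaving out CAST 1 and hybrid 2 called 230, and the exon length offset called 307. Leaving out 1 library gave 26 to 157 in CAST against 129 (lowest without 129 2), 522 to 1717 in hybrid against 129 (lowest without 129 2, highest without CAST 1), 643 to 923 in hybrid against CAST, and 788 to 1485 in the joint test (lowest without 129 2).

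Sign changes were as follows, on the log2 scale. With the exon length offset, Ntrk2 was 0.56 in CAST against 129 and 0.48 in hybrid against 129, and Ntrk3 was 0.12 in CAST against 129. Without CAST 1 and hybrid 2, CAST against 129 gave 0.46 for Ntrk2 and 0.14 for Lifr. Limma-voom gave −0.081 for Il6st in CAST against 129. Leaving out 1 library gave, in CAST against 129, −0.38 to 0.47 for Ntrk2, −1.07 to 0.087 for Gfra2, −0.86 to 0.24 for Lifr and −0.082 to 0.22 for Plcg1. In hybrid against CAST it gave −0.59 to 0.17 for Gfra1, −0.68 to 0.18 for Gfra2 and −0.49 to 0.23 for Cntfr. Of the 24 other pathway genes named, 54 of 1152 values changed sign, none of them called, and 6 gained a call (Lif and Rab7).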

Other observations

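Receptors signal from endosomes as well as from the surface, and genes of endosomal transport were listed for that reason. EdgeR called 0 of 12 tested in CAST against 129, hybrid against 129 and hybrid against CAST. At an unadjusted p under 0.05 it gave 4, 2 and 1, beside 14.6%, 22.2% and 15.8% of all tested genes. DESeq2 called 2, 1 and 1, beside 6.33%, 14.2% and 10.8%. Rab7, a GTPase of late endosomes that carries Trk receptors in axons, had 459.6, 488 and 475 CPM in 129 1 to 3, 416, 232 and 331 in the hybrid libraries, and 183, 136 and 163 in those of CAST. The 3 lines did not overlap. Between 2 lines, no overlap held for 28.6%, 37.5% and 19.2% of all tested genes, in the order of comparisons above. The share for all 3 lines at once was not computed. Gm5577, on the other strand, shares 7.82% of the exonic bases of Rab7. The log2 fold change was −1.56 ± 0.38 (SE) in CAST against 129 (adjusted p = 0.0982 in edgeR, 4.28e-05 in DESeq2) and 1.02 ± 0.37 in hybrid against CAST (adjusted p = 0.19 in edgeR, 0.0109 in DESeq2). Over the alternatives the adjusted p ran from 4.28e-05 to 0.367 and from 0.0109 to 0.454, with a call in 2 of 16 in each. Hap1, a partner of huntingtin in vesicle transport, had means of 163, 256 and 466 CPM in 129, hybrid and CAST, with overlapping lines.

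Of 14 tested genes that respond to these receptors, edgeR called 0 in each comparison between lines. At an unadjusted p under 0.05 it gave 0, 1 and 2, beside 14.6%, 22.2% and 15.8% of all tested genes. In hybrid against 129, DESeq2 and limma-voom each called 1, beside 14.2% and 7.48% of all tested genes. Gap43, a growth cone protein, had mean levels of 569, 641 and 872 CPM in 129, hybrid and CAST, with its highest value, 1361 CPM, in CAST 1. Vgf, a secreted peptide precursor induced by neurotrophins, had 517, 345 and 530 CPM. Both overlapped between all lines.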
